A study of Xenopus tropicalis with 3 samples.

Results

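The genes described here are those of the glutathione, thioredoxin and antioxidant enzyme families of Xenopus tropicalis, followed through the development of the embryonic epidermis. They were chosen by gene name alone. A gene counts as a member if its name starts with gst and a letter, mgst, txn, or gpx, prdx or sod and a digit, or if it is cat, hmox1, hmox2, nqo1, gclc, gclm, gss, gsr, glrx, glrx2 or srxn1. The rule found 49 genes among the 17647 genes of the table. RNA came from hand-dissected animal caps, the prospective epidermis, at 3 stages of development. These were NF10.5, a gastrula, then NF16, a neurula, and last NF24, a tailbud embryo. No genotype, strain, sex or treatment other than the dissection is labelled. Each stage has 3 labelled biological replicates, and the deposited table gives 1 value per transcript and stage, the authors' mean in FPKM (fragments scaled by transcript length and by the sequencing total of the library). Transcript values were summed per gene. No spread between replicates, test or error can therefore be given for any difference, and the depth of the libraries is unknown.

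Superoxide, made as a by-product of respiration and by dedicated oxidases, is turned into hydrogen peroxide by superoxide dismutases. Hydrogen peroxide is then removed by catalase, by glutathione peroxidases and by peroxiredoxins. The peroxidases draw their electrons from glutathione or thioredoxin, small thiols and proteins that glutathione reductase and thioredoxin reductases recharge with NADPH. Glutathione transferases join glutathione to lipid peroxidation products and foreign compounds. Many of these genes are known targets of the transcription factor Nrf2 (nfe2l2), which Keap1 holds in check in unstressed cells. In the Xenopus tadpole the animal cap ectoderm becomes a mucociliary epidermis that faces the water directly.

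All 8 epidermal marker genes examined were at or above 1 FPKM at every stage, and their summed level was 1491 FPKM at NF10.5, 31928 FPKM at NF16 and 32606 FPKM at NF24. Markers of other tissues moved with stage as well. The 5 mesoderm and muscle markers in the table summed to 32.4, 247 and 326 FPKM in stage order, the 6 endoderm markers to 100.9, 12.5 and 11.97 FPKM, the 5 neural markers to 993, 143 and 67.4 FPKM, and the 6 blood and myeloid markers to 8.79, 2.02 and 4.81 FPKM, with lyz below 0.1 FPKM throughout. Single markers did not all follow these sums. The epidermal sum was mostly krt5.7 (690, 17079 and 22588 FPKM) and krt (611, 12721 and 7363 FPKM). From NF16 to NF24 krt, tp63 (212 and 106 FPKM), foxj1 (98.9 and 58.9 FPKM) and foxi1 (164 and 131 FPKM) were lower. In that step krt5.7, cdh1, itln1 and dlx3 were higher. The neural sum was mostly sox2 (199, 37.3 and 22.1 FPKM) and sox3 (793, 89.3 and 28.1 FPKM). The neural markers ncam1, rax and hoxb9 were instead lowest at NF10.5, with 0.347, 0.347 and 0.04 FPKM, against 5.23, 7.25 and 4.73 FPKM at NF24. Against their sums too, the mesoderm marker t had 30.1, 24.04 and 5.89 FPKM and the endoderm marker gata6 1.73, 2.52 and 4.02 FPKM. The number of markers at 1 FPKM or more was, in the same stage order, 2, 5 and 5 for mesoderm and muscle, 6, 4 and 2 for endoderm, 2, 5 and 5 for neural tissue, and 1, 0 and 2 for blood. Their part in the results that follow was not tested. In tissue-wide RNA, fewer cells of a type and less RNA per cell cannot be told apart.

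The antioxidant genes did not move as a block. Among the members, the gene with the highest level changed between stages in every enzyme family except the peroxiredoxins and the pair of hmox1 and nqo1. Between gastrula and tailbud, gclc, gstp1, txn, txnrd1, txnip and sod3 were higher at NF24 by more than 3 on the log2 scale, while gsta4, gstcd, gpx3 and txndc16 were lower by more than 2.5. A gene is called higher or lower here when log2(FPKM + 1) differs by at least 1 between stages, and only genes with at least 1 FPKM at some stage were compared. Of the 49 members, 47 passed this filter. The others were cat, listed at 0 at NF10.5 and at no more than 0.0467 FPKM later, and the microsomal transferase mgst2, at 0.0333, 0.0833 and 0.19 FPKM. At the stages NF10.5, NF16 and NF24, 42, 44 and 47 members reached 1 FPKM. Members summed to 1597 FPKM at NF10.5, 1226 FPKM at NF16 and 1550 FPKM at NF24, which is 0.276%, 0.231% and 0.306% of all FPKM.

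From gastrula to neurula, 6 members were higher at NF16 (12.8%) against 20.9% of all 11771 genes compared, and 15 were lower (31.9%) against 39.0%. Together, 59.9% of all genes were called in this comparison. From neurula to tailbud, 6 members were higher at NF24 (12.8%) against 6.91% of all genes and 5 were lower (10.6%) against 4.84%, where 11.7% of all genes were called. Over both steps, NF24 against NF10.5, 10 members were higher (21.3%) against 25.4% and 15 lower (31.9%) against 36.9%, with 62.2% of all genes called. The shares in the comparisons with NF10.5 lie at or below the background, so the counts there single out no change of the members as a set. For NF24 against NF16 both shares lie above the background, on 6 and 5 genes, and this was not tested. The 3 comparisons share stages and are not separate evidence. The median log2 difference of the members was -0.44 for NF16 against NF10.5, beside -0.57 over all compared genes. It was 0.32 beside 0.12 for NF24 against NF16, and -0.30 beside -0.44 for NF24 against NF10.5.

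The negative medians depend on the scaling between stages. Median-of-ratios scaling moved the median of all genes by 0.68 for NF16 against NF10.5, by -0.11 for NF24 against NF16 and by 0.60 for NF24 against NF10.5. With it 11 members were higher and 7 lower for NF16 against NF10.5, and over all genes 3558 were higher and 2418 lower in place of 2466 and 4586. Values and calls of single genes below are as deposited unless a setting is named. No called member changed sign under any of the settings tried.

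**Figure D1:**
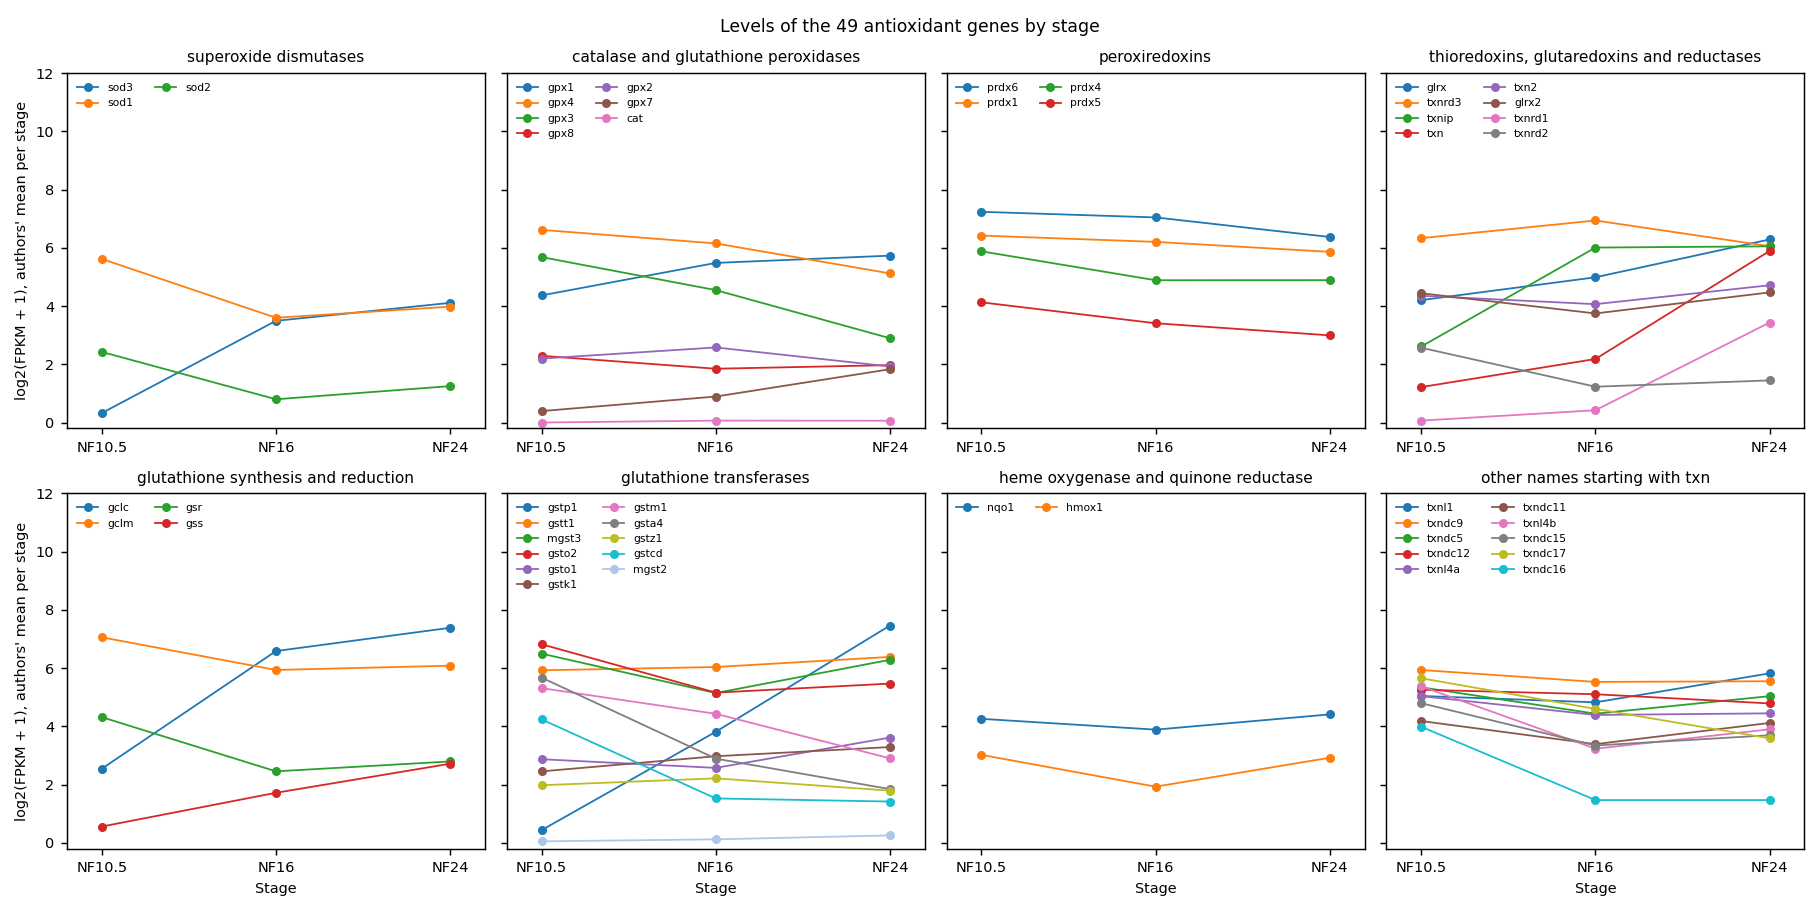
Level of each of the 49 genes at NF10.5, NF16 and NF24, as log2(FPKM + 1) of the authors' mean per stage, in 8 panels by role; lines join the stages of a gene. The lines of gclc and gstp1 end above the other members of their panels, at 166 and 175 FPKM at NF24, and the txn line climbs most in the last step, to 58.5 FPKM.

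Superoxide dismutases changed places. The cytosolic copper and zinc enzyme sod1 had 48.2 FPKM at NF10.5, 11.1 FPKM at NF16 and 14.8 FPKM at NF24. The mitochondrial manganese enzyme sod2 had 4.37, 0.74 and 1.38 FPKM. The secreted enzyme sod3 had 0.253, 10.3 and 16.3 FPKM. Thus the intracellular enzymes were highest in the gastrula, and the secreted enzyme was near 0 there and exceeded sod1 at NF24. At NF16 against NF10.5 the log2 differences were -2.02 for sod1, -1.63 for sod2 and 3.17 for sod3, and at NF24 against NF16 none of these genes was called. The share of sod1 in the summed level of the 3 genes was 91.2% at NF10.5 and 50.3% at NF16, and at NF24 sod3 led with 50.2%. The call of sod1 for NF24 against NF10.5, at -1.64, ended under median-of-ratios scaling at -0.98, and that of sod2, at -1.17, ended there too at -0.67. With a pseudocount of 5, sod2 was not called in either comparison with NF10.5 (-0.71 for NF16 and -0.56 for NF24). The copper chaperone that loads sod1, ccs, was not called at any step, with 4.03, 4.52 and 8.62 FPKM.

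Catalase turned out to be carried by a gene outside the name rule. The gene named cat in the table is listed under cat.3 in the RefSeq gene table and had at most 0.0467 FPKM, while its direct neighbour cat.1 had 79.7 FPKM at NF10.5, 100.6 FPKM at NF16 and 128 FPKM at NF24. A further copy, cat.2, had 3.03, 1.87 and 2.83 FPKM. The gene cat did not pass the filter. As deposited cat.1 and cat.2 were not called in any comparison, the log2 difference of cat.1 over both steps being 0.68. Median-of-ratios scaling divides the levels by 1.42, 0.812 and 0.890 in stage order, which raises the later stages against NF10.5. The lack of a call of cat.1 in the comparisons with NF10.5 therefore depends on the scaling. How reads were shared between the copies is not given in the sources used here.

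Glutathione peroxidases also changed in make-up. The general peroxidase gpx1 had 19.6 FPKM at NF10.5, 43.7 FPKM at NF16 and 52.2 FPKM at NF24. The phospholipid hydroperoxidase gpx4, which removes lipid peroxides from membranes, had 97.3, 70.2 and 33.9 FPKM. The secreted plasma-type enzyme gpx3 had 50.4, 22.4 and 6.45 FPKM. So gpx1 was lowest in the gastrula while gpx3 and gpx4 were lowest in the tailbud, and gpx1 exceeded gpx4 only at NF24. The ratio of gpx1 to gpx4 was 0.202, 0.623 and 1.54 in stage order. For NF16 against NF10.5 gpx1 was higher (log2 1.12, not called with a pseudocount of 5 at 0.98). In the same comparison gpx3 was lower (-1.13), a call that ended under median-of-ratios scaling at -0.35 and under quantile normalization at -0.51. For NF24 against NF16 gpx3 was lower again (-1.65, from -1.92 to -1.26 over the settings), the 135th largest decrease among the 11771 genes. The decrease of gpx4 in that step, -1.03, sat at the threshold and ended with TPM at -0.97, with quantile normalization at -0.97 and with a pseudocount of 5 at -0.95. Over both steps gpx4 was lower (-1.495), a call that ended under median-of-ratios scaling at -0.83. The other family members were sparse. The gastrointestinal-type gpx2 had 3.58, 4.98 and 2.80 FPKM, and the endoplasmic reticulum enzymes gpx7 and gpx8 had 0.313, 0.857 and 2.56 FPKM and 3.90, 2.60 and 2.92 FPKM. Of these only gpx7 was called as deposited, for NF24 against NF10.5 (log2 1.44, and 0.51 with a pseudocount of 5).

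Peroxiredoxins were among the most abundant members and none was called in either step. The cytosolic prdx6, which uses glutathione, had 150.0 FPKM at NF10.5, 131 FPKM at NF16 and 81.9 FPKM at NF24, and its level exceeded that of 94.9%, 94.6% and 91.6% of the compared genes. The cytosolic prdx1, which uses thioredoxin, had 84.8, 72.8 and 57.2 FPKM. Both levels were lower at each later stage as deposited, short of the threshold. The endoplasmic reticulum enzyme prdx4 had 57.95, 28.6 and 28.7 FPKM, a log2 difference of -0.99 for NF16 against NF10.5. The mitochondrial and peroxisomal prdx5 had 16.5, 9.63 and 6.97 FPKM. The only call in the family was prdx5 for NF24 against NF10.5 (-1.13), which ended under median-of-ratios scaling (-0.51), quantile normalization (-0.82), TPM (-0.998) and a pseudocount of 5 (-0.84). The median of the family for NF16 against NF10.5 was -0.47 as deposited but 0.31 after median-of-ratios scaling. Summed over the 4 genes, peroxiredoxins had 309 FPKM at NF10.5, 242 FPKM at NF16 and 175 FPKM at NF24.

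The cytosolic thioredoxin pair appeared late. Thioredoxin, txn, the small dithiol protein that reduces peroxiredoxins and ribonucleotide reductase, had 1.33 FPKM at NF10.5, 3.54 FPKM at NF16 and 58.5 FPKM at NF24. Its cytosolic reductase txnrd1, a selenoprotein, had 0.0467, 0.34 and 9.81 FPKM. Both were thus scarce in the gastrula and neurula, with nearly all of their signal at NF24. For NF24 against NF16 the log2 difference was 3.71 for txn and 3.01 for txnrd1. Among all 11771 genes these were the 3rd and the 15th largest increases in that comparison. Over the settings tried the value ranged from 2.89 to 4.01 for txn and from 1.47 to 4.49 for txnrd1, the wider range being that of the gene nearer to 0. For NF16 against NF10.5, txn was just under the threshold (0.96) and passed it with median-of-ratios scaling (1.47), TPM (1.22) and a pseudocount of 0.1 (1.35).

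The mitochondrial and the testis-type partners did not share this pattern. Mitochondrial txn2 had 19.5 FPKM at NF10.5, 15.8 FPKM at NF16 and 25.3 FPKM at NF24, and it was not called, reaching 1.004 for NF24 against NF10.5 only under median-of-ratios scaling. Its reductase txnrd2 had 4.93, 1.35 and 1.73 FPKM, and was lower at NF16 than at NF10.5 (log2 -1.34, but -0.75 under median-of-ratios scaling and -0.65 with a pseudocount of 5). The gene named txnrd3 was the most abundant reductase, with 79.7, 122 and 65.7 FPKM. In mammals the enzyme of that name carries an added glutaredoxin domain and is known from the testis. The transcripts listed as txnrd3 were not found in the RefSeq gene table, so its name could not be checked. The level of txnrd3 was not called as deposited. Under median-of-ratios scaling it was higher at NF16 than at NF10.5 (1.41) and lower at NF24 than at NF16 (-1.01). The ratio of txn to txn2 was 0.0682, 0.225 and 2.31 in stage order, and that of txnrd1 to txnrd3 was 0.000586, 0.00279 and 0.149, so txnrd3 remained ahead at all stages.

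The thioredoxin-binding txnip moved earlier, and glutaredoxin more gradually. The arrestin-like txnip, which binds reduced thioredoxin and limits glucose uptake, had 5.12 FPKM at NF10.5, 63.5 FPKM at NF16 and 65.4 FPKM at NF24. The log2 difference was 3.40 for NF16 against NF10.5, from 2.76 to 4.11 over the settings, and 0.04 for NF24 against NF16. The level of txnip was 3.86 times that of txn at NF10.5, 17.9 times at NF16 and 1.12 times at NF24. Cytosolic glutaredoxin, glrx, which takes its electrons from glutathione, had 17.4, 30.8 and 77.2 FPKM, and was higher at NF24 than at NF16 (1.3). It was also higher at NF16 than at NF10.5 under median-of-ratios scaling (1.55) and quantile normalization (1.35), though not as deposited (0.78). The mitochondrial glrx2 had 20.7, 12.4 and 21.2 FPKM and was not called. At NF24, glrx led the summed level of these 8 genes with 23.8%, a place that txnrd3 held with 53.6% at NF10.5 and 48.8% at NF16.

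Glutathione synthesis showed the reverse order of its subunits in the gastrula and the later stages. The catalytic subunit of glutamate-cysteine ligase, gclc, the rate-limiting enzyme of glutathione synthesis, had 4.83 FPKM at NF10.5, 94.9 FPKM at NF16 and 166 FPKM at NF24. The modifier subunit gclm, which raises the activity of gclc, had 132, 60.2 and 66.7 FPKM. The catalytic subunit was therefore far below its modifier in the gastrula and above it later: the ratio of gclc to gclm was 0.0365, 1.58 and 2.49. For NF16 against NF10.5 the log2 difference of gclc was 4.04, with a range of 3.35 to 4.75 over the settings. That of gclm was -1.12, and it ended as a call under median-of-ratios scaling (-0.32) and quantile normalization (-0.83). The ratio between the subunits at a stage does not depend on a scaling factor for that stage.

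The later enzymes of the pathway were less abundant. Glutathione synthetase, gss, which adds glycine to the product of the ligase, had 0.47 FPKM at NF10.5, 2.28 FPKM at NF16 and 5.56 FPKM at NF24. It was higher at NF16 than at NF10.5 (log2 1.16, but 0.89 under quantile normalization and 0.41 with a pseudocount of 5) and just missed the threshold for NF24 against NF16 (0.999). Glutathione reductase, gsr, which returns oxidised glutathione to its reduced form, had 18.9, 4.47 and 5.92 FPKM. Its level was lower at NF16 than at NF10.5 under every setting tried, by -1.86 as deposited and from -2.05 to -1.13. The enzymes of synthesis gclc and gss were thus higher after the gastrula, and the recycling enzyme gsr was lower, although its call for NF24 against NF10.5 (-1.52) ended under median-of-ratios scaling (-0.90).

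The glutathione transferases of the name rule kept a similar summed level in gastrula and tailbud, while the leading gene among them changed at each stage. The 11 genes summed to 381 FPKM at NF10.5, 191 FPKM at NF16 and 411 FPKM at NF24. The leading member was the omega-class gsto2 at NF10.5 with 29.3% of that sum. It was the theta-class gstt1 at NF16 with 33.8%, and the pi-class gstp1 at NF24 with 42.6%. The related gene hpgds, outside the name rule, had 162, 119.9 and 66.2 FPKM in stage order. That is above the leading member at NF10.5 and at NF16, so the change of leader holds for the members only. The pi-class enzyme, abundant in many epithelia, had 0.35 FPKM at NF10.5, 13.0 FPKM at NF16 and 175 FPKM at NF24. Both steps passed the rule, with log2 differences of 3.38 for NF16 against NF10.5 and 3.65 for NF24 against NF16. In the second of these steps it ranked 4th among the increases of all compared genes. Over both steps the difference was 7.03, and it ranged from 5.07 to 8.61 with the settings. The share of gstp1 in the family sum was 0.0918%, 6.83% and 42.6%.

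Other transferases were highest in the gastrula. The alpha-class gsta4, which in mammals conjugates the lipid peroxidation product hydroxynonenal, had 49.9 FPKM at NF10.5, 6.41 FPKM at NF16 and 2.58 FPKM at NF24. The mu-class gstm1 had 38.7, 20.5 and 6.46 FPKM. The gstcd gene, which encodes a protein with a transferase-like C-terminal domain, had 17.9, 1.87 and 1.67 FPKM. Each was lower at NF24 than at NF10.5 under all settings, with log2 differences of -3.83, -2.41 and -2.82 for gsta4, gstm1 and gstcd. They differed in timing. For NF16 against NF10.5, gsta4 (-2.78) and gstcd (-2.72) were lower and gstm1 was not called (-0.88), while for NF24 against NF16, gstm1 (-1.53) and gsta4 (-1.05, and -0.59 with a pseudocount of 5) were lower. The omega-class gsto2 had 112, 34.7 and 43.2 FPKM and was lower at NF16 than at NF10.5 (-1.66), a call that ended under median-of-ratios scaling at -0.86.

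The remaining transferases followed neither pattern. Microsomal mgst3, a membrane-bound enzyme with peroxidase activity, had 89.2 FPKM at NF10.5, 34.3 FPKM at NF16 and 76.9 FPKM at NF24. It was lower at NF16 than at NF10.5 as deposited (log2 -1.35, but -0.56 under median-of-ratios scaling and -0.86 under quantile normalization) and higher at NF24 than at NF16 under every setting (1.14, from 1.02 to 1.22). The omega-class gsto1, the direct neighbour of gsto2 in the RefSeq gene table, had 6.30, 4.94 and 11.2 FPKM. Its call for NF24 against NF16 (1.04) ended under median-of-ratios scaling (0.94), quantile normalization (0.92) and a pseudocount of 5 (0.71). The theta-class gstt1 had 59.7, 64.6 and 82.5 FPKM and was not called, but for NF24 against NF10.5 its difference of 0.46 became 1.13 under median-of-ratios scaling. The zeta-class gstz1, an enzyme of tyrosine breakdown, had 2.93, 3.63 and 2.45 FPKM. The kappa-class gstk1 had 4.47, 6.84 and 8.75 FPKM and was not called, but under median-of-ratios scaling it was higher at NF24 than at NF10.5 (1.39). A locus listed as LOC101730645, whose transcript the RefSeq table assigns to gstk1, had 13.5, 6.65 and 3.58 FPKM. The sum of both was 17.9, 13.5 and 12.3 FPKM, so the direction of gstk1 turns on whether that locus is counted with it.

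**Figure D2:**
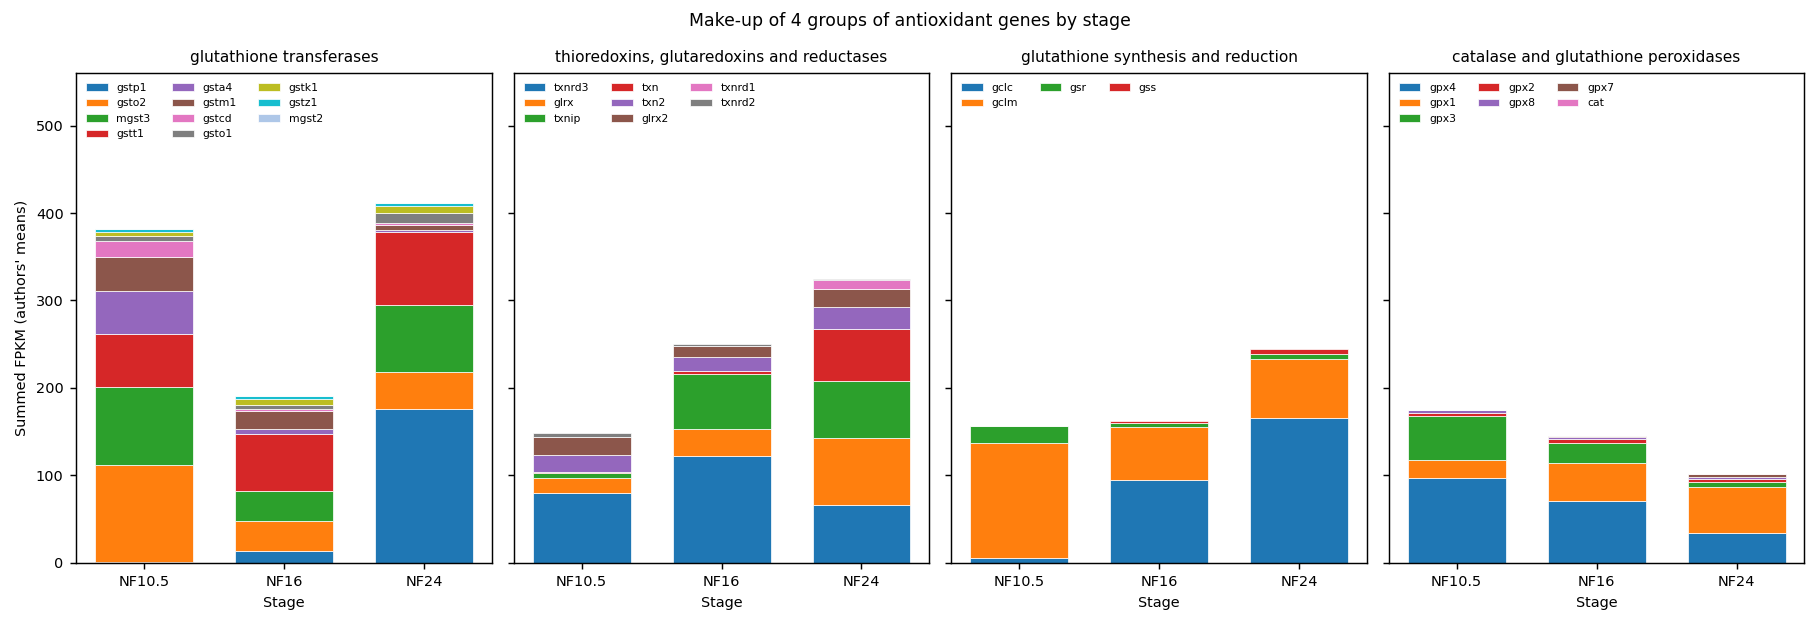
Summed FPKM of 4 groups of antioxidant genes at NF10.5, NF16 and NF24, stacked by gene from the authors' means, without error bars because no replicate values are given. In the first panel gstp1 takes 42.6% of the transferase sum at NF24, and in the third gclc takes 3.09%, 58.6% and 68.0% of the glutathione synthesis and reduction sum in stage order.

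Heme oxygenase 1 and NAD(P)H quinone oxidoreductase 1, commonly used as reporters of Nrf2 activity in mammalian cells, were not called over both steps, where gclc and gstp1 were higher. The heme-degrading hmox1 had 7.09 FPKM at NF10.5, 2.80 FPKM at NF16 and 6.56 FPKM at NF24. The quinone reductase nqo1 had 18.1, 13.8 and 20.2 FPKM. As deposited both were lowest in the neurula, and for NF24 against NF10.5 the log2 differences were -0.10 for hmox1 and 0.15 for nqo1. The difference of nqo1 for NF16 against NF10.5 turned in sign with the scaling, from -0.37 as deposited to 0.39 under median-of-ratios scaling and 0.24 under quantile normalization. For NF24 against NF10.5 nqo1 reached 0.79 under median-of-ratios scaling, and neither gene was called in that comparison under any setting. From neurula to tailbud the difference of hmox1 was 0.993, just under the threshold, which it passed with TPM (1.16) and a pseudocount of 0.1. That of nqo1 was 0.52 in this step and was not called under any setting. Whether Nrf2 activity changed between stages was not tested. The lower call of hmox1 for NF16 against NF10.5 (-1.09) ended under median-of-ratios scaling (-0.43), quantile normalization (-0.87) and a pseudocount of 5 (-0.63).

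The 10 other genes whose names start with txn encode proteins with a thioredoxin fold and varied roles. None was higher in any comparison as deposited, while txnl1 was under some settings. For NF16 against NF10.5, 4 of them (40%) were lower as deposited, near the 39.0% of all genes. For NF24 against NF10.5, 4 (40%) were lower, near the 36.9% of all genes. Of these last 4, txnl4b was lost under median-of-ratios scaling (-0.82) and txndc15 under 4 settings given below. The largest decrease was in txndc16, whose level was 1.76 FPKM at both later stages, against 14.8 FPKM at NF10.5 (log2 -2.52, from -3.00 to -1.55 over the settings). The spliceosome-related txnl4b had 40.4, 8.38 and 13.9 FPKM and was lower at NF16 than at NF10.5 under every setting (-2.14). The cytosolic txndc17, also known as TRP14, had 49.2, 23.2 and 11.01 FPKM, which makes it the only gene of this group lower in both steps as deposited (-1.05 and -1.01). The call at NF16 ended under median-of-ratios scaling (-0.27), quantile normalization (-0.43), TPM (-0.95) and a pseudocount of 5 (-0.94), and that at NF24 against NF16 ended with TPM (-0.97) and a pseudocount of 5 (-0.82). The difference of txndc17 over both steps (-2.06) stayed called under every setting, from -2.15 to -1.41. The ciliary txndc15 had 26.7, 9.12 and 11.9 FPKM (-1.45 for NF16 against NF10.5, but -0.69 under median-of-ratios scaling and -0.84 under quantile normalization). Its call over both steps (-1.1) ended under median-of-ratios scaling (-0.46), quantile normalization (-0.67), TPM (-0.94) and a pseudocount of 5 (-0.91).

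Genes of this group that were not called included the endoplasmic reticulum proteins txndc5, txndc11 and txndc12. They had 39.5, 20.6 and 31.8 FPKM, 17.1, 9.46 and 16.3 FPKM, and 37.2, 33.3 and 26.6 FPKM. The tubulin folding factor relative txndc9 had 60.1, 45.04 and 45.8 FPKM, the spliceosome component txnl4a 31.8, 19.96 and 20.8 FPKM, and the proteasome-associated txnl1 31.9, 27.3 and 55.4 FPKM. The difference of txnl1 for NF24 against NF16 was 0.995, just under the threshold, which it passed with TPM (1.08) and a pseudocount of 0.1 (1.02). For NF24 against NF10.5 it was 0.78 as deposited, but 1.43 under median-of-ratios scaling and 1.31 under quantile normalization. Without the txndc and txnl genes, 6 of 37 compared members were higher (16.2%) and 11 lower (29.7%) for NF16 against NF10.5. The shares of all genes were 20.9% and 39.0%. For NF24 against NF10.5, 10 were higher (27.0%) and 11 lower (29.7%), beside 25.4% and 36.9% of all genes. For NF24 against NF16, 6 were higher (16.2%) and 4 lower (10.8%), beside 6.91% and 4.84% of all genes.

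**Figure D3:**
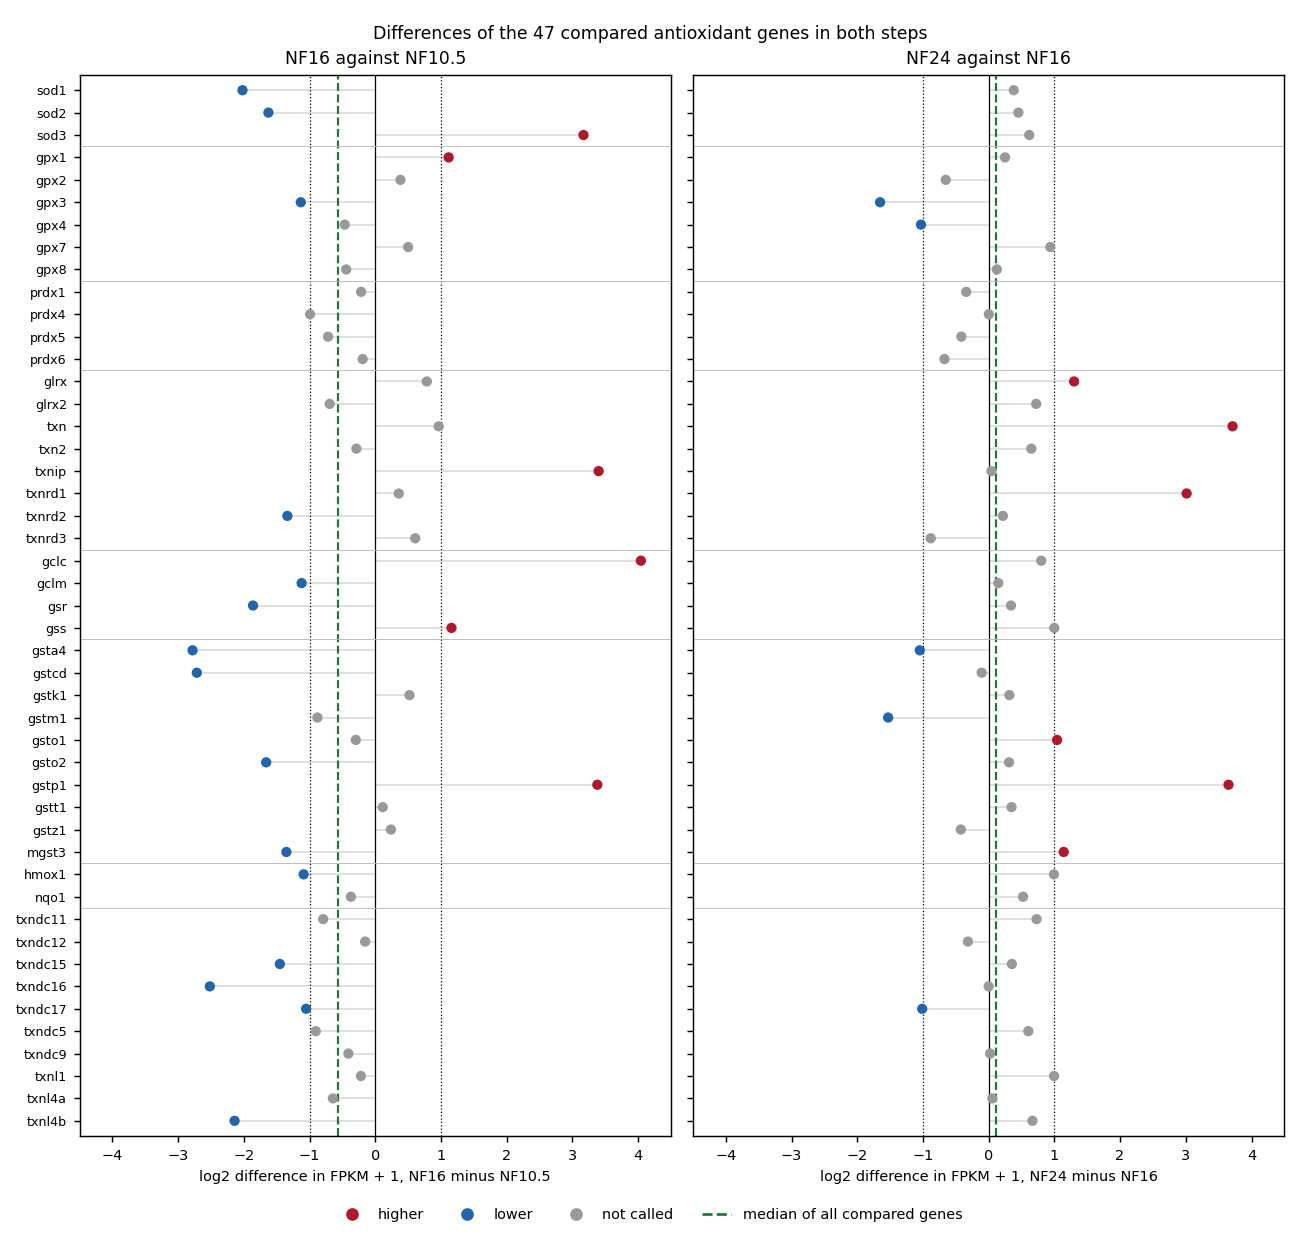
Log2 difference in FPKM + 1 of the 47 compared genes, NF16 minus NF10.5 on the left and NF24 minus NF16 on the right, with dotted lines at the threshold of 1 and a dashed line at the median of all compared genes (-0.57 and 0.12). In the left panel gclc, txnip, gstp1 and sod3 lie above 3, and in the right panel txn, gstp1 and txnrd1 do.

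Of the 49 members, 16 are represented by more than 1 transcript, and transcript shares changed most in sod3. Its transcript NM_001113159.2 gave 81.6%, 34.9% and 3.40% of the gene's FPKM in stage order, and XM_012971795.2 gave the rest. The level of XM_012971795.2 was 0.0467, 6.68 and 15.7 FPKM in stage order, while that of NM_001113159.2 was 0.207, 3.59 and 0.553 FPKM. The increase of sod3 over both steps was therefore in XM_012971795.2, and the share at NF10.5 rests on a gene total of 0.253 FPKM. In gsto2, XM_012966444.2 led with 65.7% at NF10.5 and 52.2% at NF16, and NM_001005086.2 led with 53.4% at NF24. The decrease of gsto2 was larger for its highest transcript, -1.96 for NF16 against NF10.5 where the gene sum gave -1.66.

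In gsta4, XM_018093890.1 gave 69.9% at NF10.5 and 72.9% at NF16, and NM_001016676.2 gave 64.4% at NF24, when the gene total was 2.58 FPKM. In gstcd the transcript XM_004911089.2 gave 84.2%, 46.5% and 64.2% in stage order. In txndc16 the 2 transcripts drew level, XM_018096314.1 giving 70.9%, 62.1% and 51.9% in stage order. The leading transcripts of txndc9 and txnrd3 kept their place, with 69.1%, 65.5% and 67.0% for NM_001079070.1 and 90.6%, 92.7% and 92.1% for XM_012961339.2. The division of reads between overlapping transcripts was made by the authors and cannot be checked from FPKM.

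**Figure D4:**
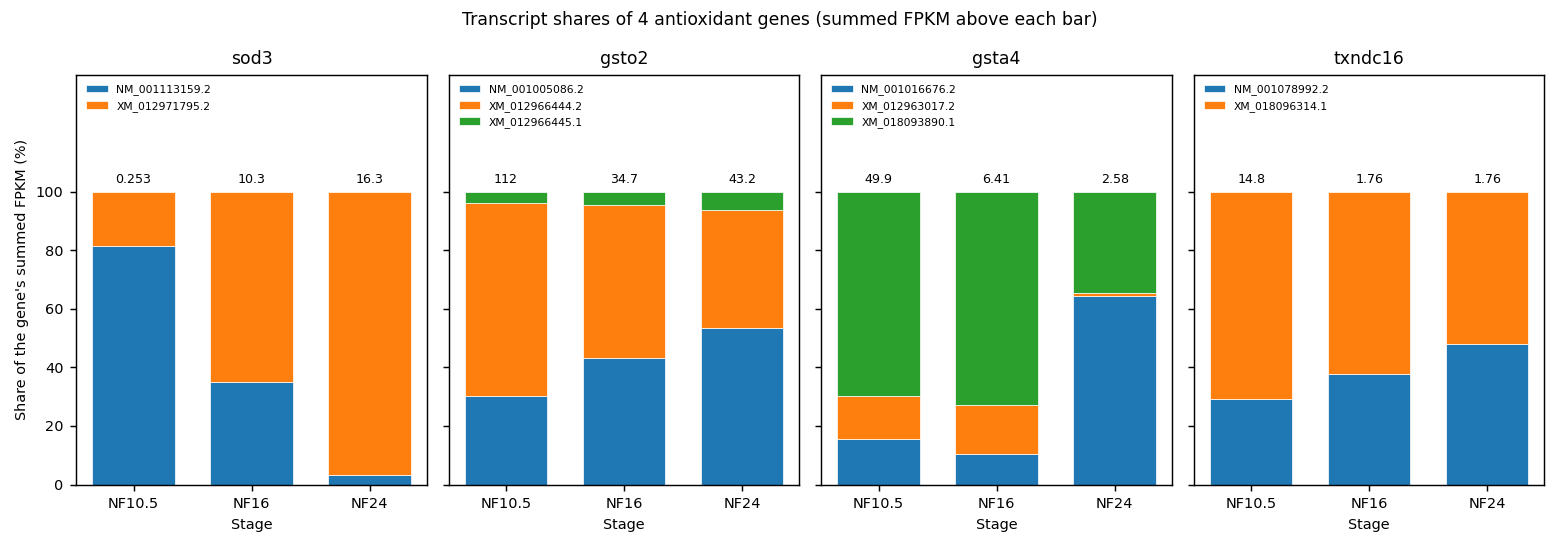
Share in percent of each transcript in the summed FPKM of sod3, gsto2, gsta4 and txndc16 at NF10.5, NF16 and NF24, with the gene's summed FPKM above each bar. The colours of sod3 change over, with XM_012971795.2 at 18.4% at NF10.5 and 96.6% at NF24, while the txndc16 shares move toward equal parts.

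Genes around the antioxidant enzymes were read from 8 lists, and listed names absent from the deposited data were left out. Those found were 13 of 13 Nrf2 regulators and Maf partners, 16 of 17 NADPH suppliers, and 22 of 25 genes of cysteine supply and glutathione turnover. For selenoproteins 15 of 33 were found, and for other redox repair enzymes and for oxidant producers 19 of 24 each. The iron and metal list had 17 of 25 and the peroxisome list 19 of 26. Among the Nrf2 regulators and Maf partners, 4 of 11 compared genes were higher and 3 lower at NF16 against NF10.5, beside 20.9% and 39.0% of all genes, with a median of -0.39 beside -0.57. The transcription factor nfe2l2 (Nrf2) had 4.02 FPKM at NF10.5, 22.04 FPKM at NF16 and 31.4 FPKM at NF24, and its relative nfe2l1 had 5.71, 15.7 and 27.8 FPKM. The autophagy receptor sqstm1, which binds Keap1, had 9.73, 36.0 and 54.03 FPKM, and the small Maf gene maff had 4.92, 15.03 and 18.4 FPKM. These 4 genes were the higher ones, by log2 2.2, 1.32, 1.78 and 1.44 for nfe2l2, nfe2l1, sqstm1 and maff. The lower ones were the repressor bach1 (12.1, 2.12 and 6.53 FPKM, log2 -2.07), keap1 (33.5, 13.6 and 23.96 FPKM, -1.24) and the ubiquitin ligase subunit rbx1 (214, 95.8 and 88.6 FPKM, -1.15). Under median-of-ratios scaling 4 genes of this list were higher and 1 lower, while 3558 of all 11771 genes were higher and 2418 lower. For NF24 against NF16, bach1 was higher (1.27) and no gene of the list was lower.

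Of 16 compared enzymes that supply NADPH, 2 were higher and 4 lower for NF16 against NF10.5. Over all genes the shares were 20.9% and 39.0%, and the list's median was -0.21 beside -0.57. Median-of-ratios scaling turned the counts into 4 and 2, while over all 11771 genes 3558 were higher and 2418 lower. The cytosolic isocitrate dehydrogenase idh1 had 9.16 FPKM at NF10.5, 67.1 FPKM at NF16 and 138 FPKM at NF24, and the folate enzyme aldh1l1 had 14.2, 218 and 79.1 FPKM. The endoplasmic reticulum enzyme h6pd was instead highest in the gastrula, with 31.02, 3.18 and 1.25 FPKM. The log2 differences for NF16 against NF10.5 were 2.75 for idh1, 3.85 for aldh1l1 and -2.94 for h6pd, and me2 (-1.34) and taldo1 (-1.105) were lower too. For NF24 against NF16, idh1 was higher (1.03, a call lost under median-of-ratios scaling, where no gene of the list was higher) and aldh1l1 (-1.45) and me2 (-1.18) were lower. For NF24 against NF10.5, 4 of 16 were higher and 3 lower, beside 25.4% and 36.9% of all genes.

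For cysteine supply and glutathione turnover, 6 of 16 compared genes were higher and 7 lower at NF24 against NF10.5, beside 25.4% and 36.9% of all genes, with a median of -0.52 beside -0.44. The heavy chain of the cystine transporter, slc3a2, had 1.1 FPKM at NF10.5, 86.1 FPKM at NF16 and 113 FPKM at NF24. Its cystine-specific light chain slc7a11 had 0.01, 0.24 and 3.00 FPKM, below slc3a2 at every stage. The glutathione-degrading chac1 had 17.9, 32.7 and 197 FPKM, and was higher at NF24 than at NF16 by log2 2.55. Its relative chac2 had 20.1, 1.70 and 2.03 FPKM, log2 -2.97 for NF16 against NF10.5. The glyoxalase hagh had 13.3, 125 and 157 FPKM. The leucyl aminopeptidase lap3 (24.3, 3.43 and 1.3 FPKM) and the glutathione conjugate exporter abcc1 (19.7, 3.01 and 5.90 FPKM) were highest in the gastrula. For NF16 against NF10.5, 2 genes of the list were higher and 6 lower, beside 20.9% and 39.0% of all genes. Under median-of-ratios scaling they were 5 and 5, while 3558 of all 11771 genes were higher and 2418 lower.

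Of the 33 names in the selenoprotein list, relevant to gpx1, gpx4 and the thioredoxin reductases, 15 were found. For NF16 against NF10.5, 2 of these 15 genes were higher and 8 lower, or 3 and 2 with median-of-ratios scaling. The shares of all genes were 20.9% and 39.0% as deposited, and with that scaling 3558 of all 11771 genes were higher and 2418 lower. The list's median was -1.24 beside -0.57 as deposited. Among its factors for selenocysteine insertion, secisbp2 had 24.4 FPKM at NF10.5, 3.44 FPKM at NF16 and 5.75 FPKM at NF24, eefsec had 27.1, 6.57 and 6.50 FPKM, and trnau1ap had 83.2, 28.1 and 20.6 FPKM. The log2 differences for NF16 against NF10.5 were -2.51, -1.89 and -1.53 for secisbp2, eefsec and trnau1ap. The selenophosphate synthetase sephs2 was not called in either step, with 101.9, 72.05 and 49.8 FPKM, and sat at the threshold over both (-1.02). The higher genes were selm, an endoplasmic reticulum selenoprotein (0.0933, 13.1 and 25.8 FPKM), and sephs1 (2.22, 10.8 and 13.2 FPKM). The methionine sulfoxide reductase msrb1 (53.3, 18.3 and 7.69 FPKM) and the selenoprotein sepw1 (132, 46.7 and 20.7 FPKM) were lower in both steps. The gene msrb1 also stands in the repair list that follows.

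Among other redox repair enzymes, 4 of 18 were higher and 8 lower for NF24 against NF10.5, or 5 each with median-of-ratios scaling. The all-gene shares were 25.4% and 36.9% as deposited, and with that scaling 3937 of all 11771 genes were higher and 2730 lower. The list's median was -0.56 beside -0.44 as deposited. The mitochondrial methionine sulfoxide reductase msrb2 had 0.523 FPKM at NF10.5, 48.8 FPKM at NF16 and 52.4 FPKM at NF24, the opposite order to msrb1. The mitochondrial monothiol glutaredoxin glrx5 had 25.4, 63.4 and 116 FPKM and the cytosolic glrx3 had 82.5, 31.5 and 14.1 FPKM, so these too lay in opposite order. The coenzyme Q reductase aifm2, which protects against lipid peroxidation beside gpx4, had 12.9, 23.2 and 49.6 FPKM, log2 1.07 for NF24 against NF16, a step in which no gene of the list was higher under median-of-ratios scaling. The thiol oxidase qsox1 had 43.9, 6.07 and 1.98 FPKM, log2 -3.91 for NF24 against NF10.5.

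Oxidant producers were sparse. Of the 19 genes of that list in the table, 9 reached 1 FPKM at some stage, and among these only noxo1 and aox1 exceeded 5 FPKM, both highest at NF10.5 with 7.54 and 16.7 FPKM. At NF24 the oxidase subunits nox1, cybb and cyba had 2.64, 2.86 and 3.47 FPKM, and ncf1, duox1, duox2 and duoxa1 were below 0.1 FPKM. For NF24 against NF10.5, 4 of 9 were higher (nox1, cybb, cyba and maob) and 2 lower (noxo1 and aox1), beside 25.4% and 36.9% of all genes. The list's median was 0.95 beside -0.44, and with a pseudocount of 5 none of its genes was higher and 2 were lower. As cybb is also a phagocyte gene, the single blood and myeloid markers stand beside it. In stage order ptprc had 8.44, 0.94 and 0.237 FPKM, spib 0.0367, 0.597 and 3.19 FPKM, and mpo 0.0533, 0.267 and 1.03 FPKM. The markers hba1, hbg1 and lyz were below 1 FPKM at every stage. The summed level of the markers given above therefore fell with ptprc from NF10.5 to NF16. From NF16 to NF24 that sum rose from 2.02 to 4.81 FPKM, although ptprc was lower still. Both spib and mpo were higher at each later stage. A part of such cells in the level of cybb was not tested.

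Iron and metal buffering had 6 of 14 genes higher and 2 lower for NF24 against NF10.5, beside 25.4% higher and 36.9% lower over all genes. The median of the list was 0.88, beside -0.44 over all genes. With median-of-ratios scaling 8 were higher and 0 lower, while 3937 of all 11771 genes were higher and 2730 lower. With a pseudocount of 5, 3 were higher and 1 lower, while over all genes 1974 were higher and 3224 lower. Of the 6 higher genes as deposited, steap1 (0.01, 0.433 and 3.04 FPKM) and mt4 (0.0267, 1.22 and 4.08 FPKM) were sparse. Another, atox1, sat at the threshold (1.05). The ferritin heavy chain fth1, which stores iron, had 199.7 FPKM at NF10.5, 908 FPKM at NF16 and 1579 FPKM at NF24. The iron exporter slc40a1 had 1.58, 8.88 and 21.2 FPKM, and the biliverdin reductase blvrb, which acts after heme oxygenase, had 13.2, 31.3 and 65.2 FPKM. Over both steps fth1, slc40a1 and blvrb were higher by log2 2.98, 3.10 and 2.22, and for NF24 against NF16 fth1 was not called (0.80). The iron-responsive regulator ireb2 (31.9, 9.00 and 11.1 FPKM) and blvra (8.68, 2.16 and 2.82 FPKM) were the lower ones.

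Of 18 compared peroxisome genes, 16 were called lower and 0 higher for NF16 against NF10.5, beside 39.0% and 20.9% of all genes. Their median log2 difference was -1.77, beside -0.57 over all genes. Under median-of-ratios scaling 10 were lower and 0 higher, with a median of -1.07 beside 0.12 over all genes, and under quantile normalization 12 were lower and 0 higher. The import factors pex3 and pex14 had 88.1 FPKM at NF10.5, 20.5 FPKM at NF16 and 17.1 FPKM at NF24, and 26.8, 2.78 and 1.67 FPKM. The peroxisome division gene pex11g had 10.01, 0.507 and 0.823 FPKM. The catalase gene cat.1, whose protein is a peroxisomal enzyme, was not called at any step as deposited, which depends on the scaling as described above. For NF24 against NF16, pex11a was higher (0 FPKM at NF10.5, 0.0867 FPKM at NF16 and 1.56 FPKM at NF24) and the amino acid oxidase dao was lower (16.8, 4.73 and 1.80 FPKM).

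**Figure D5:**
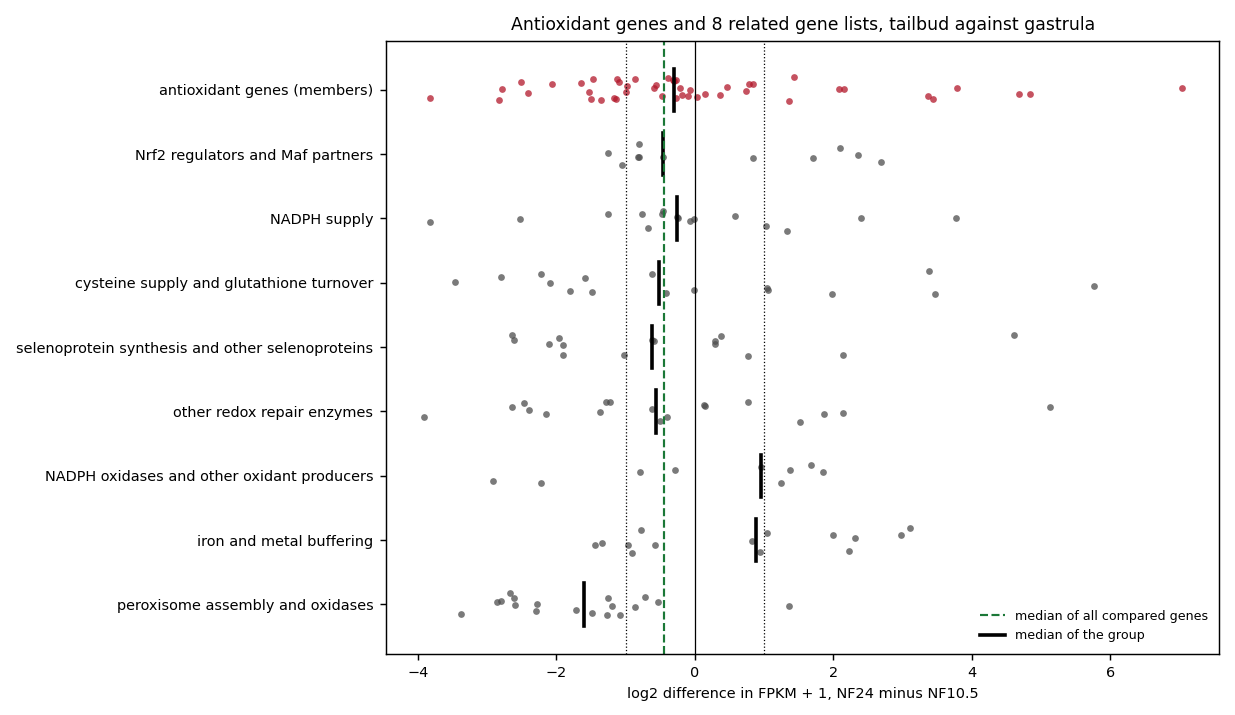
Log2 difference in FPKM + 1, NF24 minus NF10.5, of the 47 compared antioxidant genes (top) and of the compared genes of 8 related lists, 1 point per gene with a bar at each group's median and a dashed line at the median of all compared genes (-0.44). The peroxisome list has its median at -1.60 with 1 gene above 0, and the antioxidant genes spread from -3.83 (gsta4) to 7.03 (gstp1) around a median of -0.30.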

How the data were processed

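Per the labels' protocols, animal cap total RNA was depleted of ribosomal RNA before strand-specific paired-end library preparation. The submitters' processing notes name STAR 2.4.2a and RSEM 1.3.0 and give no settings, and the genome build is not given in the sources used here. The deposited table holds FPKM for 35028 transcripts, 1 column per stage. All values above 0 lie on steps of 0.01/3 (within 0.05 of a step), so they are taken as the authors' means of the 3 labelled replicates.

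The level of a gene is the sum of its transcripts' FPKM, computed with pandas 2.3.3. Genes with at least 1 FPKM at some stage were compared as log2(FPKM + 1), and a difference of at least 1 was called. The code for these steps was run on simulated data with planted changes and no noise, which does not measure how reliable the calls are. Members with 10 FPKM at some stage, or called, or listed at 0, are given at every stage, with the remaining members added. Of each pathway list, the called genes with the largest differences were named, up to 4 per comparison and direction, and some others were named after their values were seen. The members and lists were chosen with earlier results of these data known. Names were checked by transcript accession against RefSeq (assembly UCB_Xtro_10.0), which held 48 of the 49 members. The member not found was txnrd3, so its name is as deposited. Other pseudocounts, filters, scalings and transcript choices were tried.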

Additional observations from a re-analysis of the deposited data

How the results depend on the processing

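All values rest on 1 mean per stage, and without the replicates or the depth no error can be attached to a call. Low FPKM values are the least certain, as the settings for txnrd1, gpx7, gss and sod3 show. No called member changed sign under another pseudocount, filter, scaling or transcript choice. Of 21, 11 and 25 calls for NF16 against NF10.5, NF24 against NF16 and NF24 against NF10.5, 10, 7 and 14 held under all of these settings. With median-of-ratios scaling, 11 members were higher and 7 lower for NF16 against NF10.5 (6 and 15 as deposited). For NF24 against NF10.5 that scaling gave 15 higher and 6 lower (10 and 15 as deposited). Over all genes it gave 3937 higher and 2730 lower in that comparison, in place of 2984 and 4342. Quantile normalization gave 9 lower for NF16 against NF10.5. For NF24 against NF16 (6 higher and 5 lower as deposited), TPM gave 10 higher and 3 lower, a pseudocount of 0.1 gave 10 higher and a pseudocount of 5 gave 2 lower. The other counts of members stayed within 1.5 times the deposited ones, including without the txndc and txnl genes and, chosen after seeing the data, with cat.1, cat.2 and LOC101730645 added. The members' median for NF16 against NF10.5 was 0.33 under median-of-ratios scaling, where that of all genes was 0.12. No paired analysis was possible because the table has no replicate columns, and no replicate could be left out.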
